A study of Mus musculus with 24 samples.

Results

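Levels of 10 mouse genes of the oxidative stress response and of metal buffering were followed through 8 groups of dorsal root ganglion libraries. The genes were taken by name (Hmox1, Nqo1, Gclc, Gclm, Srxn1, Txnrd1, Mt1, Mt2, Mt3 and Gpx3), and each is 1 row of a table of 20782 genes. In short, after a peripheral lesion Srxn1 and Txnrd1 rose while Nqo1, Gclc, Gclm, Mt3 and Gpx3 fell. Over all genes tested there, 20.9% were called higher and 20.2% lower. In dissociated cultures 8 of the 10 genes stood above intact sham ganglia at 6 h, led by Hmox1 and Mt2, and Mt3 stood below. Of all genes tested in that comparison, 24.2% were called higher and 24.2% lower.

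Cells under oxidative or electrophilic stress release the transcription factor NRF2 from its inhibitor KEAP1, and NRF2 pairs with small MAF proteins on antioxidant response elements, where BACH1 can repress the same genes. Its textbook targets rebuild glutathione (Gclc and Gclm, the catalytic and the modifier subunit of glutamate-cysteine ligase), reduce quinones (Nqo1), break down heme (Hmox1), reduce thioredoxin (Txnrd1) and repair over-oxidized peroxiredoxins (Srxn1). Metallothioneins are small cysteine-rich proteins that bind zinc and copper. Mt1 and Mt2 are induced by metals through the factor MTF1 and also by glucocorticoids and stress, whereas Mt3 is mainly a neural form that is not known for strong induction by metals. Gpx3 encodes a secreted, selenium-containing glutathione peroxidase.

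RNA-seq libraries came from mouse dorsal root ganglia, the clusters of sensory neurons and glia beside the spinal cord, with 3 libraries in each of 8 groups. There were 2 embryonic groups of lumbar ganglia (E12.5 and E17.5) and 2 adult groups of L4 and L5 ganglia, sham operated or with a peripheral lesion, also called conditioned. The other 4 groups were adult lumbar ganglia taken apart and plated at low density on laminin, in Neurobasal-A medium with the supplement B-27, and collected 6, 12, 24 and 36 h after plating. The labels leave out strain, sex and the interval between lesion and collection. No group carries a transgene or an added drug according to the labels. B-27, present in every culture group, is a serum-free supplement known to contain antioxidants, selenium and a glucocorticoid. The libraries carry 1 shared extraction text that names cell sorting, although intact ganglia are also listed, so which groups were sorted is not clear. The labels do not say whether replicate libraries came from separate animals or cultures, so p-values measure the spread between these libraries, which may be technical. In bulk libraries fewer cells of a type and less RNA per cell cannot be told apart.

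The table's normalized read counts turned out to be whole reads divided by a size factor. Recovered depth ran from 3103838 to 25732182 reads per library, and 5 libraries held under 5000000 (E17.5 replicates 2 and 3, 6 h replicate 3, 12 h replicate 1 and 24 h replicate 1). Replicates of a group correlated at 0.971 to 0.993 (Pearson r of log2 values across genes, which are not independent), and no pair looked like a single library deposited again. Neuronal markers were present in every group, with a summed level over 8 genes of 220249 to 235855 in sham ganglia, 186382 to 202483 after lesion and 61815 to 122668 in culture. Markers of spinal cord neurons and precursors summed to 452 to 1387 at E12.5 and to at most 95.2 in any other library.

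Promoter sequence is shown for genes in which a match was found, because the elements named above are read by letters. Windows of Nqo1 and Gpx3, without a match, are not printed, and of the 3 Txnrd1 windows only the one with the strict antioxidant core is. RefSeq windows (build GRCm38.p6) were matched for 8 of the 10 genes, and Hmox1 and Gclc had none. In the 250 bases before each start site, both strands were searched for an antioxidant response element core (TGACNNNGC), a metal response element core (TGCACNC or TGCGCNC) and an AP-1 site (TGANTCA). A relaxed antioxidant core (TGANNNNGC), which contains every strict match, was added after the strict matches had been seen. Of 32851 windows in the mouse genome, 10.2% held the strict antioxidant core, 35.2% the relaxed one, 21.4% the metal core and 6.75% the AP-1 site. A match is a description of letters, and no match says only that these letters are not in this window. Distances are counted from the RefSeq start site, which for Mt2 lies 46 bases before its start in the GENCODE annotation. Each line below gives 150 bases, 5′ to 3′ on the gene's strand, with the named match in capitals. It ends just before the RefSeq start site, or before GENCODE exon sequence where that begins earlier.
Srxn1, chr2:152105366-152105515, plus strand, AP-1: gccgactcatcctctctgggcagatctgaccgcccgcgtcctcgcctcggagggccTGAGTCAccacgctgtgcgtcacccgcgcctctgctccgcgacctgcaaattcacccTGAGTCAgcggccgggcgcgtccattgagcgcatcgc
Srxn1, the same bases, relaxed antioxidant core: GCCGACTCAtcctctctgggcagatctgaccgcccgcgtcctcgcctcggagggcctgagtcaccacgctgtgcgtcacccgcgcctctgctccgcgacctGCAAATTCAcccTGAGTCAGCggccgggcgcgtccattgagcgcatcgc
Txnrd1, chr10:82859029-82859178, plus strand, antioxidant core: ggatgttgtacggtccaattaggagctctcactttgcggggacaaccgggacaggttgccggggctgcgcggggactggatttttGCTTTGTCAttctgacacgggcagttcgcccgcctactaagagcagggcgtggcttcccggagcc
Gclm, chr3:122245407-122245556, plus strand, antioxidant core: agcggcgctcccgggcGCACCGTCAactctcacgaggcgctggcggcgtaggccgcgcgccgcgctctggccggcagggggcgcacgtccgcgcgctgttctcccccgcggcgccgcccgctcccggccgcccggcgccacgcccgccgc
Mt2, chr8:94172468-94172617, plus strand, antioxidant core: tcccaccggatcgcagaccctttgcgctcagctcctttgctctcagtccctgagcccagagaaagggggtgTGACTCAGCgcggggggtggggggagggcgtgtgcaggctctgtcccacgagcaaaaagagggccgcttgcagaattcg
Mt2, the same bases, metal core: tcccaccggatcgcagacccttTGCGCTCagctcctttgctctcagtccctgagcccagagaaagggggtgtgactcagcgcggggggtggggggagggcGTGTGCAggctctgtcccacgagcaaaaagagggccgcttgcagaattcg
Mt1, chr8:94178932-94179081, plus strand, metal core: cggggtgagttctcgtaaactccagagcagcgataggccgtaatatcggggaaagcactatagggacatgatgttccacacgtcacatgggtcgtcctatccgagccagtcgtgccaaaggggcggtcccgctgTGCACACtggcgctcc
Mt3, chr8:94152457-94152606, plus strand, relaxed antioxidant core: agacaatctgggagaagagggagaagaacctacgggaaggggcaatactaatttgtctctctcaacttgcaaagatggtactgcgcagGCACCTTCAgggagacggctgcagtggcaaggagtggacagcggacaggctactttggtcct
Srxn1 held 2 AP-1 matches, with first bases 102 and 45 before the start site, and 0.338% of all windows held 2 or more. The AP-1 match at 45 lies inside 1 of its 3 relaxed antioxidant matches, and 1.06% of windows held 3 or more of those. The strict antioxidant core was found 134 bases before the start of Gclm, where it overlaps a metal core match at 138, and 92 bases before 1 of 3 listed starts of Txnrd1. Gclm held another metal core match at 72, and Srxn1 held 1 at 19. Mt2 held the antioxidant core at 79, with an AP-1 match inside it, and 3 metal core matches at 223, 128 and 50, of which the first lies outside the printed bases. Mt1 held 1 metal core match at 23. Mt3 held only relaxed antioxidant matches, at 192 and 62, and none of these motifs was matched in Nqo1 or Gpx3. Whether any match bears on the levels of its gene was not tested.

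By the GENCODE M21 annotation of the same build, all 10 are protein-coding genes. Mt3 (chromosome 8, 94152607 to 94154146), Mt2 (94172664 to 94173568) and Mt1 (94179082 to 94180327) lie side by side on the plus strand. Hmox1 (75093621 to 75100589, plus) and Nqo1 (107388225 to 107403206, minus) are on chromosome 8 too. Srxn1 lies on chromosome 2 (152105516 to 152111376, plus), Gclm on chromosome 3 (122245557 to 122270732, plus) and Gclc on chromosome 9 (77754535 to 77794485, plus). Txnrd1 lies on chromosome 10 (82833951 to 82897712, plus) and Gpx3 on chromosome 11 (54902453 to 54910377, plus). Gm45774 runs antisense to Mt2, other transcripts overlap Gclm and Txnrd1, and the strand setting of the counting is not given, so reads from such partners cannot be told apart. Eid3, inside Txnrd1 on the same strand, averaged 17.6 normalized counts against 1271 or more for Txnrd1 in each group.

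**Figure D1:**
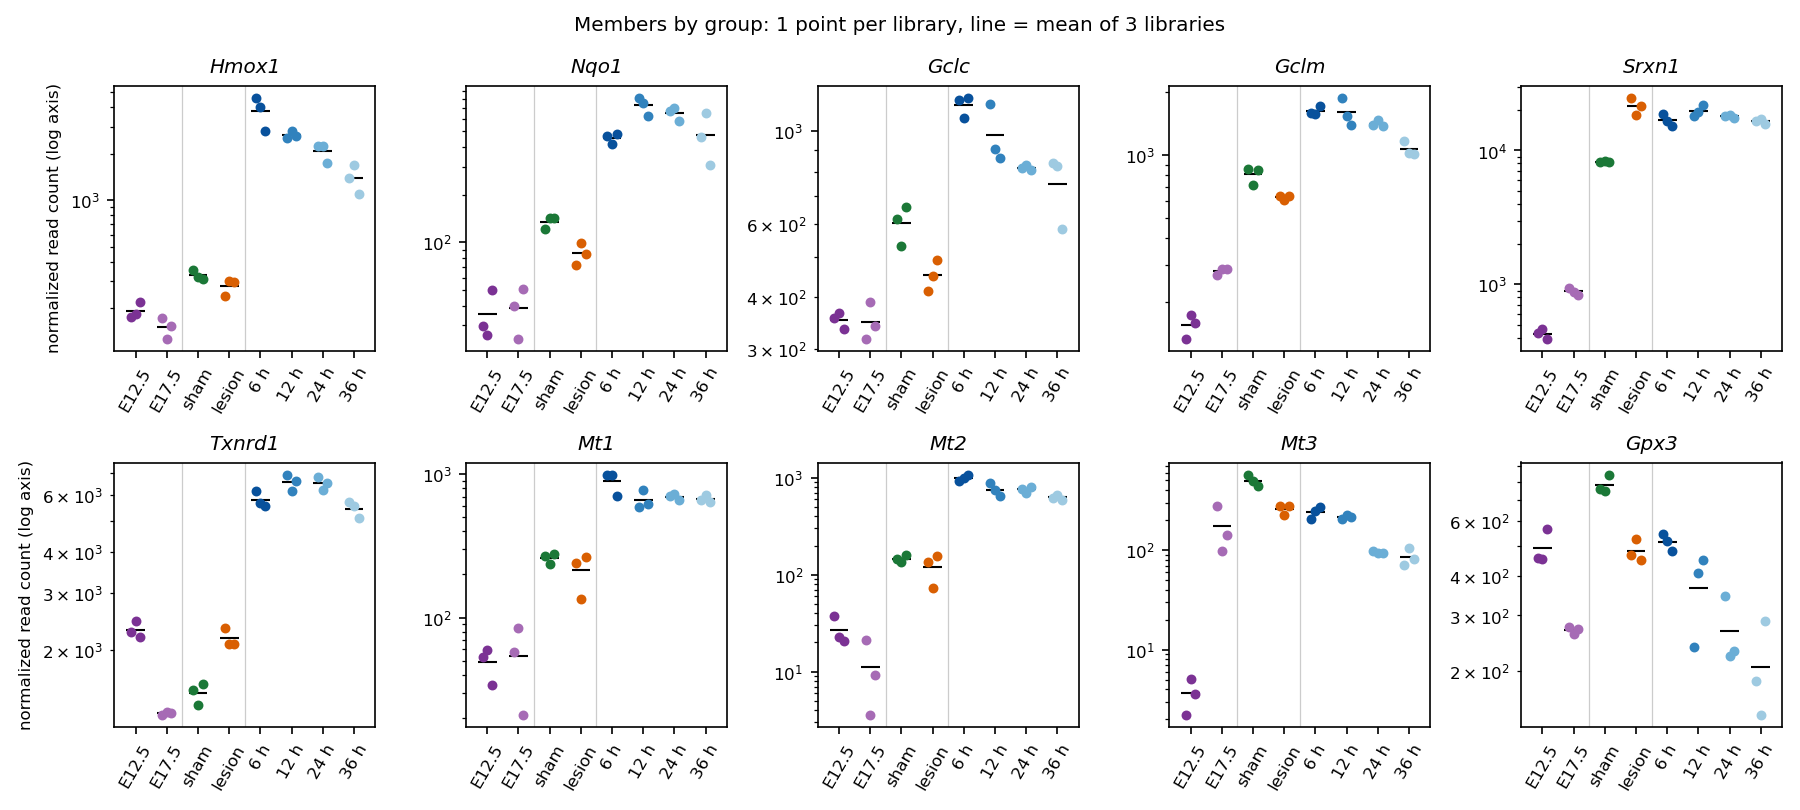
Normalized read counts (log axis) of the 10 genes in 8 groups, with 1 point per library and a line at the mean of 3 libraries. Hmox1, Nqo1, Gclm, Txnrd1, Mt1 and Mt2 are higher in all 12 culture libraries than in all 6 adult intact libraries, and the share of all genes that separate in this way was not counted. Srxn1 is highest after lesion, and Mt3 and Gpx3 are highest in sham ganglia.

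The first comparison asked how a peripheral lesion changed these genes in adult ganglia. With limma and Benjamini-Hochberg adjustment over 14556 genes, 2 of the 10 were called higher and 5 lower at an adjusted p under 0.05. Over all genes tested, 20.9% were called higher and 20.2% lower. The median log2 difference of the 10 was -0.35, against -0.01 over all genes. The groups did not overlap for 8 of the 10, and for 52.5% of all genes tested.

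Srxn1, the sulfiredoxin that repairs over-oxidized peroxiredoxins, measured 8273, 8311 and 8193 normalized counts in sham ganglia and 24649, 18539.7 and 21558 after lesion. Every lesion library lay far above every sham library, and the sham libraries differed by little. The rise was 2.60-fold (log2 difference 1.38 ± 0.09, SE; n = 3; limma adjusted p = 3.6e-07). Txnrd1, the cytosolic thioredoxin reductase, measured 1499.6, 1351 and 1567 in sham ganglia and 2338, 2089 and 2088 after lesion. The groups were again apart, and the rise was 1.48-fold (limma adjusted p = 9.4e-05).

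Of the 4 other NRF2 targets among the 10, Nqo1, Gclc and Gclm were called lower and Hmox1 was not called. Nqo1, the quinone reductase, measured 122, 142 and 142 in sham ganglia and 72.0, 98.5 and 85.0 after lesion, with no overlap. It fell by 0.67 ± 0.15 on the log2 scale (limma adjusted p = 0.00280), a call lost in a single fit over all 24 libraries (adjusted p = 0.0766). Gclc fell by 0.41 (limma adjusted p = 0.00463) and Gclm fell by 0.36 (limma adjusted p = 0.00426), so both subunits of the enzyme that starts glutathione synthesis were lower. Hmox1, which frees iron and carbon monoxide from heme, measured 354, 317 and 309 in sham ganglia and 239, 301 and 294 after lesion, a log2 difference of -0.24 that was not called (limma adjusted p = 0.0995).

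Among the metallothioneins only Mt3 was called. Mt3 measured 573, 489.8 and 435 in sham ganglia and 275, 227 and 277 after lesion, with every lesion library below every sham library. It fell by 0.94 ± 0.12 on the log2 scale (limma adjusted p = 3.6e-05). Mt1 measured 271, 235 and 276 in sham ganglia and 241, 134 and 267 after lesion, and these ranges overlap (limma adjusted p = 0.259). In Mt2 the sham libraries stood at 145, 134 and 159 and the lesion libraries at 135, 73.5 and 156 (limma adjusted p = 0.294). In both genes the second lesion library was the lowest of the 6.

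Gpx3, the secreted peroxidase, measured 758, 746 and 845 in sham ganglia and 468, 526 and 449.8 after lesion. No lesion library reached a sham library, and Gpx3 fell by 0.70 ± 0.09 on the log2 scale (limma adjusted p = 3.7e-05). Alongside these changes, 7 of 8 macrophage markers tested were called higher after lesion. Their summed level rose from 1597 to 1736 in sham libraries to 3265 to 4752 after lesion, with none of these markers at 0. Aif1, 1 of the 8, stayed at or below 8.86 in sham libraries. It passed the filter on low values (at least 10 in at least 3 libraries) only through the lesion libraries, so its result is a description. All 6 fibroblast markers were called higher as well, with sums of 7800.0 to 10125 in sham libraries and 10243 to 12378 after lesion. Of 8 neuronal markers 5 were called lower and 2 higher, with a median log2 difference of -0.33. The part of these cells in the results was not tested.

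**Figure D2:**
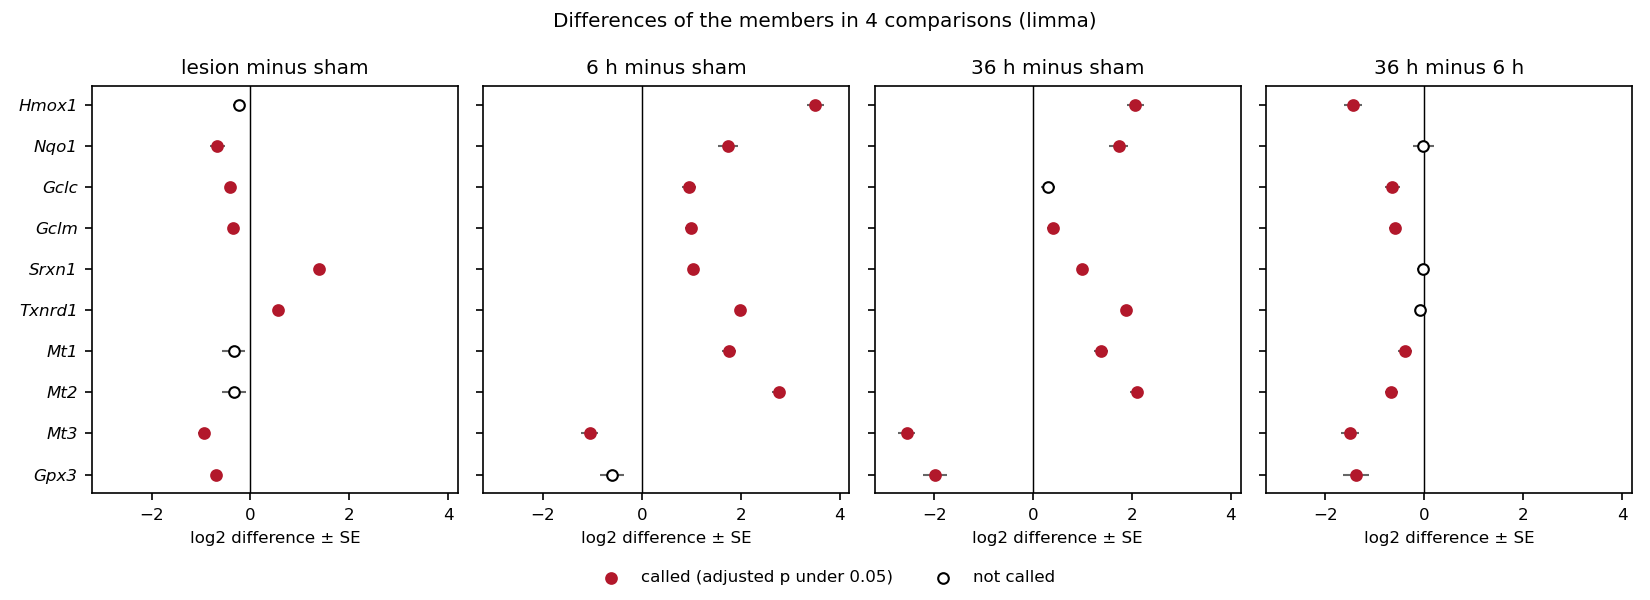
Log2 differences (± SE, n = 3 libraries a group) of the 10 genes in 4 comparisons by limma, with filled points for adjusted p under 0.05 and open points for the rest. Srxn1 and Txnrd1 are the filled points to the right of 0 after lesion, whereas Hmox1 and Mt2 lie farthest to the right at 6 h in culture and Mt3 lies to the left in all 4 panels.

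The second comparison set dissociated cultures against intact sham ganglia, which are the same 3 libraries used as controls for the lesion. Dissociation, time in medium and the run of library numbers in the titles all differ between these groups, and sorting may differ. The effects of these cannot be told apart. At 6 h, 8 of the 10 genes were called higher and 1 lower by limma over 15256 genes, whereas 24.2% of all genes were called higher and 24.2% lower. The median log2 difference of the 10 was 1.39, against -0.05 over all genes, and no gene's 6 h libraries overlapped its sham libraries, as was so for 64.1% of all genes tested. At 36 h, 7 were called higher and 2 lower, against 32.1% higher and 31.9% lower over all genes, with a median of 1.18 against 0.01.

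At 6 h Hmox1 had the largest log2 difference of the 10. Its 6 h libraries measured 4584, 4022 and 2799.7 normalized counts, against 354, 317 and 309 in sham ganglia. The lowest 6 h library was well above the highest sham library, and the rise was 11.4-fold (log2 difference 3.51 ± 0.17; limma adjusted p = 3.4e-11). By 36 h the libraries read 1395, 1687 and 1104, still 4.21-fold above sham (limma adjusted p = 1.0e-08).

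Mt2 and Mt1 rose next to each other on chromosome 8. Mt2 measured 924, 999 and 1082 at 6 h and 621, 671 and 591 at 36 h, against 134 to 159 in sham ganglia. All 12 culture libraries of Mt2 lay above all 6 adult intact ones, with a 6.83-fold rise at 6 h (log2 difference 2.77 ± 0.13; limma adjusted p = 1.5e-11) and a 4.28-fold rise at 36 h (limma adjusted p = 1.9e-10). Mt1 measured 997, 987 and 702 at 6 h and 663, 712 and 645 at 36 h, against 235 to 276 in sham ganglia. Its rise was 3.39-fold at 6 h (limma adjusted p = 2.0e-08) and 2.58-fold at 36 h (limma adjusted p = 1.7e-07).

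Mt3 moved the other way. The 6 h libraries measured 205, 246 and 272 and the 36 h libraries 70.1, 104 and 81.2, against 573, 489.8 and 435 in sham ganglia. Both culture times lay wholly below sham, and Mt3 fell by 1.05 on the log2 scale at 6 h (limma adjusted p = 6.2e-05) and fell by 2.55 at 36 h (limma adjusted p = 5.6e-10). All 8 neuronal markers were called lower at 36 h and 7 of 8 at 6 h, with a median log2 difference of -1.70 and -0.77, and the part of neuronal content in the Mt3 result was not tested.

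Txnrd1 rose 3.95-fold at 6 h, with libraries at 6196, 5675 and 5564 against 1499.6, 1351 and 1567 in sham ganglia (log2 difference 1.98 ± 0.10; limma adjusted p = 3.1e-11). It was still 3.70-fold higher at 36 h, with 5697, 5549.6 and 5100.1 (limma adjusted p = 2.1e-11). The lowest culture library of Txnrd1 lay above the highest intact one, a lesion library at 2338. Srxn1 rose 2.04-fold at 6 h, to 18858, 16508 and 15268 (limma adjusted p = 1.8e-07), and stood 2.00-fold above sham at 36 h, at 16695, 17142 and 15672 (limma adjusted p = 9.1e-08). Here the culture libraries, at 15268 to 21799, overlapped the lesion libraries, and the difference between lesion and culture was not tested.

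Nqo1 rose 3.36-fold at 6 h, to 468, 416 and 483 (limma adjusted p = 1.5e-06), and was 3.32-fold above sham at 36 h, where the libraries spread from 305 to 653 (limma adjusted p = 6.4e-07). Each of these lies above the highest sham value of 142. The 2 subunits of glutamate-cysteine ligase rose less. Gclm measured 1576, 1558 and 1703 at 6 h against 860.0, 719 and 846 in sham ganglia, a 2.00-fold rise (limma adjusted p = 2.3e-06) that had shrunk to 1.32-fold by 36 h (limma adjusted p = 0.00659). Gclc measured 1191, 1075 and 1202 at 6 h against 615, 529 and 657, a 1.93-fold rise (limma adjusted p = 4.2e-05). At 36 h its libraries read 837, 823 and 582, overlapped sham and were not called (log2 difference 0.30; limma adjusted p = 0.0765), although a call was reached in 4 of 15 alternatives. These were TMM scaling (adjusted p = 0.0409), edgeR (adjusted p = 0.0337), the fit without shallow libraries (adjusted p = 0.0473) and the fit without 36 h replicate 3 (log2 difference 0.47; adjusted p = 0.00738).

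Gpx3 was lower in culture. At 6 h it measured 544, 519 and 483, below the sham range of 746 to 845, with a log2 difference of -0.60 that just missed the threshold (limma adjusted p = 0.0501) and passed it in 5 of 15 alternatives, edgeR and DESeq2 on the recovered reads among them (adjusted p from 0.0244 to 0.132 over all 15). At 36 h it measured 185, 144 and 289 and fell by 1.98 on the log2 scale (limma adjusted p = 1.6e-06). Other cell types also differed between culture and sham. Of 7 myelinating Schwann cell markers, 6 were called lower at 6 h and 1, Egr2, higher (338 to 446 normalized counts). Their sums were 65910.4 to 83379 in sham libraries and 19527 to 27038 at 6 h. All 6 fibroblast markers were called lower at 6 h, with a median log2 difference of -2.07. Of 7 satellite glial markers 5 were called lower, Cadm4 was called higher and Sox10 was not called, with sums of 53068 to 62384 in sham libraries and 25021 to 28045 at 6 h, or 19678 to 20759.7 and 11682 to 14389 without Apoe, the most abundant. Macrophage markers summed to 1597 to 1736 in sham libraries and 293 to 376 at 6 h (5 of 7 called lower and 1 higher), and erythroid markers to 4619.9 to 5014 and 543 to 786 (4 of 5 called lower). Endothelial markers went up in sum, from 1162 to 1323 in sham libraries to 2429 to 3176 at 6 h and 4201 to 5675 at 36 h. At 6 h 3 of 6 were called higher and 3 (Cldn5, Tek and Flt1) were not called, and at 36 h all 6 were called higher. The part of these shifts in the results was not tested.

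Within the culture course the question was which genes went on changing after plating. An F test over the 4 times (limma, 12 libraries) called 7 of the 10, with 45.7% of all genes called. The 3 not called were Srxn1 (adjusted p = 0.176), Txnrd1 (adjusted p = 0.0852) and Mt1 (adjusted p = 0.0770). DESeq2 called 9 of the 10 and 51.2% of all genes, the Nqo1 call was lost without the shallow libraries (adjusted p = 0.113), and the Mt2 call was lost in a single fit over 24 libraries (adjusted p = 0.390). From 6 to 36 h, 7 of the 10 were called lower and the other 3 were not called, whereas 25.3% of all genes were called higher and 25.3% lower. The median log2 difference of the 10 from 6 to 36 h was -0.62, against 0.02 over all genes. Over the same interval 4 of 8 neuronal markers were called lower (median -0.65), all 6 endothelial markers higher (median 0.99) and 4 of 7 macrophage markers higher (median 1.28). Of 7 satellite glial markers 4 were called higher and 1 lower, and the part of these shifts in the results was not tested.

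Hmox1 libraries read 2521, 2795 and 2614 at 12 h and 2233, 2253 and 1744 at 24 h. The step from 6 to 12 h was not called (limma adjusted p = 0.0955), and the steps to and from 24 h were not tested by themselves. None of its 4 culture groups overlapped its neighbour in level, and from 6 to 36 h it fell by 1.44 ± 0.18 on the log2 scale (limma adjusted p = 1.0e-05). Mt3 held at 203, 224 and 217 at 12 h and then dropped to 98.4, 94.5 and 93.2 at 24 h. The drop from 12 to 36 h was called (log2 difference -1.34; limma adjusted p = 5.8e-05), as was that from 6 to 36 h (log2 difference -1.50; limma adjusted p = 7.4e-06). Gpx3 fell by 1.38 on the log2 scale from 6 to 36 h (limma adjusted p = 4.8e-04), with wide spread at 12 h (238, 411 and 452).

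Gclc, Gclm, Mt2 and Mt1 also fell from 6 to 36 h, by smaller amounts. Gclc fell by 0.65 (limma adjusted p = 0.00215), Gclm fell by 0.60 (limma adjusted p = 8.0e-04) and Mt2 fell by 0.67 (limma adjusted p = 5.3e-04). The Mt2 call was lost in a single fit over 24 libraries (adjusted p = 0.109). Mt1 fell by 0.39 with overlapping groups (limma adjusted p = 0.0365), and that call held in 6 of 15 alternatives, with adjusted p from 0.00201 to 0.317. Nqo1 took a different path. It measured 468, 416 and 483 at 6 h, 810.4, 755 and 628 at 12 h, 676, 703 and 577 at 24 h and 458, 653 and 305 at 36 h, so 6 h and 36 h overlapped while 12 h lay above 6 h.

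From 6 to 12 h none of the 10 passed the adjusted threshold in limma, where 5.86% of all genes were called higher and 4.72% lower. At an unadjusted p under 0.05 there were 5 (Hmox1, Nqo1, Srxn1, Mt1 and Mt2), against 24.8% of all genes. edgeR called 2 of the 10 and 12.1% of all genes, and DESeq2 called 4 and 14.7%. The rise of Nqo1 by 0.68 on the log2 scale came closest (limma adjusted p = 0.0501). Between 12 and 36 h, 6 of the 10 were called lower (Hmox1, Nqo1, Gclm, Txnrd1, Mt3 and Gpx3) and the rest were not called, where 15.3% of all genes were called higher and 18.2% lower. Hmox1 fell by 0.94 (limma adjusted p = 0.00103) and Gclm fell by 0.57 (limma adjusted p = 0.00230). The Txnrd1 call (limma adjusted p = 0.0494) held in 4 of 15 alternatives, with adjusted p from 0.0185 to 0.164. The Nqo1 call (limma adjusted p = 0.0186) was lost without 36 h replicate 3 (adjusted p = 0.0974) and without the shallow libraries (adjusted p = 0.0807). The Gpx3 call (limma adjusted p = 0.0235) was lost without 12 h replicate 2 or 3 or 36 h replicate 1 or 2, where adjusted p reached 0.118, and with eBayes run without trend or robust (adjusted p = 0.0566).

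Between E12.5 and E17.5, 3 genes were called higher (Mt3, Srxn1 and Gclm) and 2 lower (Txnrd1 and Gpx3), where 31.1% of all genes were called higher and 31.9% lower. Mt3 passed the filter on low values (at least 10 in at least 3 libraries) only through its E17.5 libraries, so that it had to differ, and its call is a description. Mt3 measured 2.20, 5.14 and 3.60 normalized counts at E12.5, from 4, 8 and 5 reads, and 280.2, 98.8 and 141 at E17.5. The E17.5 libraries stood far above all E12.5 ones, with a log2 difference of 5.14 ± 0.44 on the log2(value + 1) scale (limma adjusted p = 1.7e-05), which ran from 4.25 to 5.65 over the 11 alternatives that could be fitted, since Mt3 does not pass the filter with any of the 3 E17.5 libraries left out. The library numbers in the titles also differ between the ages and cannot be told apart from them. All 7 myelinating Schwann cell markers and 7 of 8 neuronal markers were called higher at E17.5, and 4 of 5 spinal cord markers tested were called lower. Each spinal cord marker tested reached 10 in all 3 E12.5 libraries and in fewer at E17.5, so these spinal cord calls are a description. The part of these cell types in the results was not tested.

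Srxn1 measured 432, 461 and 392 at E12.5 and 940.4, 875 and 839 at E17.5, a 2.06-fold rise without overlap (limma adjusted p = 1.1e-04). Gclm rose 1.81-fold, from 133, 173 and 158 to 267, 286 and 287 (limma adjusted p = 0.00129). Txnrd1 fell by 0.85 on the log2 scale, from 2260, 2451 and 2184 to 1254, 1284 and 1274 (limma adjusted p = 1.6e-04). The E12.5 libraries also lay above the sham libraries of Txnrd1, at 1351 to 1567, a difference that was not tested. Gpx3 fell by 0.87, from 458, 455 and 565 to 275, 261 and 271 (limma adjusted p = 6.7e-04).

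Mt2 was near the limit of depth at E17.5, where 21.0, 3.53 and 9.25 normalized counts rested on 48, 1 and 4 reads. At E12.5 it measured 37.9, 22.5 and 20.9, and the difference was not called (limma adjusted p = 0.0547), although it was without E17.5 replicate 1 (adjusted p = 0.0163), with a pseudocount of 5 (adjusted p = 0.0459) and in a single fit over 24 libraries (adjusted p = 0.00101). Over 14 alternatives its log2 difference ran from -1.99 to -0.85. Mt2 reached the filter value of 10 in 3 E12.5 libraries but in only 1 at E17.5, so it passed mainly through the higher group. Without E17.5 replicate 1 it passed only through E12.5, and these calls are a description. Mt1 measured 53.2, 59.7 and 33.9 at E12.5 and 57.7, 84.7 and 20.8 at E17.5, with overlapping groups (limma adjusted p = 0.972). Hmox1 (175, 184 and 219 at E12.5, 174, 127 and 153 at E17.5), Nqo1 (26.3 to 50.5 and 24.7 to 50.9) and Gclc (334 to 366 and 317 to 388) were not called either, with limma adjusted p of 0.112, 0.807 and 0.921.

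Sham ganglia of adults were called higher than E17.5 ganglia for 9 of the 10 genes, Mt2 among them, where 28.9% of all genes were called higher and 31.1% lower. Age, surgery, ganglion level and library numbers differ together here and cannot be told apart, and the sham libraries are again the shared controls. Mt2 was 14.6-fold higher in sham ganglia (log2 difference 3.86 ± 0.49; limma adjusted p = 1.3e-04), though its E17.5 values rest on the few reads given above and it passed the filter on low values only through the sham libraries, so its call is a description. Srxn1 was 9.33-fold higher, with 8193 to 8311 against 839 to 940.4 (limma adjusted p = 7.2e-08), and Mt1 was 5.45-fold higher (limma adjusted p = 8.0e-04). Nqo1 (3.59-fold), Mt3 (3.13-fold), Gpx3 (2.90-fold), Gclm (2.87-fold), Hmox1 (2.17-fold) and Gclc (1.72-fold) were higher too, with limma adjusted p from 5.3e-06 for Gclm and 3.4e-06 for Gpx3 to 0.00173 for Mt3. Txnrd1 was not called (1.16-fold; limma adjusted p = 0.0900), but was in DESeq2 (adjusted p = 0.0429), in a single fit over 24 libraries (adjusted p = 0.0472) and without E17.5 replicate 2 (adjusted p = 0.0488). All 7 myelinating Schwann cell markers were called higher in sham ganglia, with a median log2 difference of 2.98 and sums of 65910.4 to 83379 against 8984 to 10505 at E17.5. Of 6 markers each, 4 endothelial, 4 fibroblast and 5 erythroid ones were called lower in sham ganglia, and 1 fibroblast marker was called higher. Neuronal markers were called higher for 4 of 8 and lower for 1. The part of these in the results was not tested.

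Ordered by mean over the 8 groups, the 10 genes fell into different patterns. Hmox1 ran 6 h, 12 h, 24 h, 36 h, sham, lesion, E12.5, E17.5, and no neighbours in that order overlapped. Some gaps were narrow, such as 2799.7 for the lowest 6 h library against 2795 for the highest 12 h library. The Hmox1 differences between 6 and 12 h, sham and lesion, and E12.5 and E17.5 were not called. Mt1 and Mt2 both had the 4 culture groups on top and then sham and lesion, which overlapped each other. Gclc and Gclm had the 4 culture groups on top, then sham, lesion and the embryos, with the 36 h and sham libraries of Gclc overlapping. Nqo1 ran 12 h, 24 h, 36 h, 6 h, sham, lesion and the embryos, with overlap among the culture times and between the embryonic ages. Srxn1 alone of the 10 had lesion as its highest group, although lesion overlapped 12 h in culture. Mt3 and Gpx3 had sham as their highest group, with no overlap with the next. Txnrd1 was the only one with E12.5 (2298 ± 138, SD) above lesion (2171 ± 144) and sham (1472 ± 110.4), and E12.5 and lesion overlapped.

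Per kilobase of the principal transcript, levels can be set side by side between genes. Srxn1 was the most abundant of the 10 in sham ganglia, at 2937 ± 21.5 normalized counts per kb (SD, n = 3), and Mt3 was second at 931 ± 129.6. There Mt3 was above Mt1 (475 ± 40.1) and Mt2 (286 ± 25.2). At 6 h in culture the order of the metallothioneins was reversed, with Mt2 at 1960.5 ± 156 and Mt1 at 1631 ± 306, which overlap within their SDs, above Mt3 at 449 ± 62.8 normalized counts per kb. Hmox1 went from 208 ± 15.6 per kb in sham ganglia, to 2423 ± 581 at 6 h, where only Srxn1 had a higher mean (6002 ± 648). Nqo1 was the lowest of the 10 in sham ganglia at 87.0 ± 7.33 per kb.

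**Figure D3:**
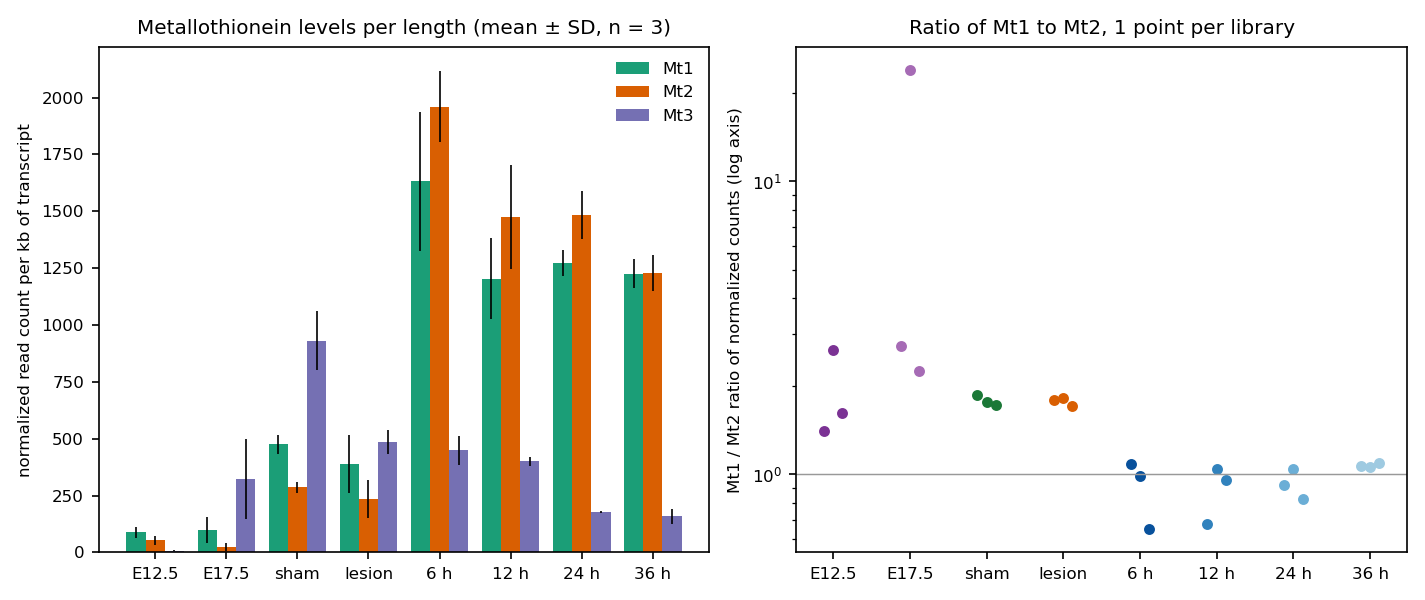
Left, mean normalized counts per kb of transcript (± SD, n = 3) of Mt1, Mt2 and Mt3 in 8 groups. Right, the Mt1 to Mt2 ratio in each library on a log axis, from 1.71 to 1.87 in the 6 adult intact libraries and from 0.648 to 1.09 in the 12 culture libraries. The highest point, at E17.5, rests on 1 read of Mt2.

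Genes with a like pattern were sought among 10385 genes with a mean of at least 100 by the Pearson r of log2(value + 1) over 24 libraries. The libraries share groups and depth, so r is a description only. The nearest to Srxn1 were Ankrd33b (0.994), Cyb5r1 (0.993) and Gldn (0.982), and to Mt3 they were Dync1i1 (0.985), Aldoc (0.984) and Cplx1 (0.983). Hmox1 lay nearest Irg1 (0.981), Tnf (0.970) and Fosl1 (0.970), while Txnrd1 lay nearest Mdm2 (0.988), Clic4 (0.986) and Trib1 (0.983). For Gclm they were Eea1 (0.984), Rragc (0.978) and Ifit1 (0.978), for Nqo1 Gla (0.977), Slc19a2 (0.977) and Clec4e (0.974), and for Gclc Tiparp (0.951), D15Ertd621e (0.950) and Mkln1 (0.945). Mt1 had Uhrf1bp1l (0.962), Sbds (0.959) and Oasl1 (0.959), and Mt2 had Tap1, Aff1 and Cd274 (each 0.957). Among the nearest to Gpx3 were Fkbp4 (0.895) and Tsnax (0.882). With r taken over the 8 group means instead, Mt2 and Gpx3 kept none of their nearest genes. Mt1 kept only Oasl1, Mt3 only Cplx1 and Gclc only D15Ertd621e, while Srxn1, Hmox1, Nqo1, Gclm and Txnrd1 kept most of theirs. Among the 10 themselves r was 0.95 for Mt1 with Mt2, 0.95 for Hmox1 with Nqo1, 0.62 for Srxn1 with Txnrd1 and -0.39 for Txnrd1 with Gpx3.

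Regulators of the NRF2 pathway, the proteins that set the activity of these targets, were taken as a list. Of 15 regulators, 9 were called higher and 4 lower at 6 h in culture against sham, with a median log2 difference of 0.57, and 4 were called higher and 1 lower after lesion, with a median of 0.07. Over all genes tested the shares were 24.2% higher and 24.2% lower at 6 h, and 20.9% and 20.2% after lesion. Nfe2l2, which encodes NRF2, measured 1315 ± 50.5 (SD, n = 3) in sham ganglia and 1264 ± 57.6 after lesion (limma adjusted p = 0.537), and rose 2.01-fold to 2648 ± 283 at 6 h (limma adjusted p = 5.6e-07). Keap1, its inhibitor, fell by 0.82 on the log2 scale at 6 h (limma adjusted p = 6.1e-04) and was not called after lesion (limma adjusted p = 0.171). Maff, a small MAF partner, rose 11.7-fold at 6 h, from 71.7 ± 1.14 to 853 ± 107 (limma adjusted p = 1.3e-11). Bach1, the repressor at the same elements, rose 3.00-fold after lesion, from 641 ± 23.8 to 1947 ± 374 (limma adjusted p = 2.3e-06), and 3.50-fold at 6 h in culture, to 2245 ± 102 (limma adjusted p = 2.0e-10). Nfe2l2 and the values of Keap1 after lesion and of Bach1 at 6 h were added beyond the rule for list genes, after they had been seen.

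Of 26 tested genes listed as other NRF2 targets of detoxification, 10 were called higher and 6 lower at 6 h against sham, and 14 higher and 6 lower at 36 h. Aldh3a1 (0 in every sham library) and Gsta3 (at most 5.85 there) passed the filter on low values only through culture libraries. Their part in these counts is a description. All genes tested gave 24.2% higher and 24.2% lower at 6 h, 32.1% and 31.9% at 36 h, and 20.9% and 20.2% after lesion. Slc7a11, the cystine carrier that feeds glutathione synthesis, rose 14.8-fold at 6 h, from 129 ± 42.5 to 1858 ± 76.9 (limma adjusted p = 5.6e-11), and 28.2-fold at 36 h (limma adjusted p = 1.5e-12). Ugt1a6a, a glucuronosyltransferase, instead fell by 1.53 on the log2 scale at 6 h (limma adjusted p = 1.5e-08) and then rose 6.65-fold from 6 to 36 h (limma adjusted p = 5.2e-10). After lesion 6 of 24 tested were called higher and 3 lower. Trib3, which stands in the list but does not encode a detoxification enzyme, was up 2.01-fold (limma adjusted p = 3.4e-04). The epoxide hydrolase gene Ephx1 was down by 0.85 on the log2 scale (limma adjusted p = 4.5e-05). The medians were 0.21 at 6 h, 0.73 at 36 h and -0.05 after lesion.

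The glutathione list held 22 tested genes beside the members, of which 5 were called higher and 8 lower at 6 h, 8 higher and 7 lower at 36 h, and 3 higher and 6 lower after lesion. Its medians were -0.36, -0.05 and -0.14 in that order. The shares over all genes were 24.2% higher and 24.2% lower at 6 h, 32.1% and 31.9% at 36 h, and 20.9% and 20.2% after lesion. Chac1, which degrades glutathione, rose 5.72-fold at 6 h (limma adjusted p = 1.6e-08) and 3.28-fold after lesion (limma adjusted p = 2.3e-06). Mgst3, a microsomal glutathione transferase, fell by 0.92 after lesion (limma adjusted p = 5.1e-04). Of 21 thioredoxins, peroxiredoxins and glutaredoxins, 3 were called higher and 8 lower at 6 h, and 4 higher and 5 lower after lesion, with medians of -0.19 and -0.09. Sesn2, a stress-induced sestrin, rose 8.59-fold at 6 h (limma adjusted p = 3.9e-09) and 2.61-fold after lesion (limma adjusted p = 3.0e-05). Txnip, which binds and inhibits thioredoxin, fell by 1.84 on the log2 scale at 6 h, from 1521 ± 104 to 426 ± 67.4 (limma adjusted p = 3.2e-09), and rose 3.35-fold from 6 to 36 h (limma adjusted p = 9.1e-08).

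In the zinc and copper list, 8 of 24 genes tested were called higher and 4 lower both after lesion and at 6 h in culture, and 12 were higher and 3 lower at 36 h, with medians of 0.05, 0.15 and 0.43. Among all genes, 20.9% were called higher and 20.2% lower after lesion, 24.2% and 24.2% at 6 h, and 32.1% and 31.9% at 36 h. Slc30a1, the zinc exporter known as a target of MTF1, rose 3.08-fold at 6 h, from 379 ± 14.9 to 1183 ± 203 (limma adjusted p = 1.3e-07). Mtf1 itself, named after its values had been seen, rose 2.77-fold at 6 h (limma adjusted p = 2.1e-08) and 1.20-fold after lesion (limma adjusted p = 0.0225). The importer gene Slc39a1 was 3.44-fold above sham at 36 h (limma adjusted p = 3.8e-10). For genes that respond to glucocorticoids, which also induce Mt1 and Mt2, 6 of 18 tested were called higher and 9 lower at 6 h, with a median of -0.29. Dusp1 rose 3.29-fold (limma adjusted p = 3.3e-08) and Sult1a1 fell by 2.87 (limma adjusted p = 3.1e-07). After lesion 4 of 17 were higher, among them Per1 (2.29-fold; limma adjusted p = 0.00145), and 2 were lower.

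Heme and iron genes, the setting of Hmox1, showed 4 of 20 higher and 8 lower at 6 h, and 2 higher and 7 lower after lesion, with medians of -0.16 and 0.00. For all genes the shares were 24.2% higher and 24.2% lower at 6 h, 20.9% and 20.2% after lesion, and 32.1% and 31.9% at 36 h. Hmox2, the constitutive heme oxygenase, fell by 1.45 on the log2 scale at 36 h, from 1035 ± 44.1 in sham ganglia to 379 ± 38.9 (limma adjusted p = 5.2e-09). Slc11a2, an iron carrier, rose 1.76-fold after lesion (limma adjusted p = 2.5e-05) and 2.88-fold at 36 h (limma adjusted p = 8.0e-10). Of 10 selenium genes, which serve Gpx3 and Txnrd1 as selenoproteins, 3 were called higher and 2 lower at 6 h and 5 higher and 4 lower at 36 h, with medians of -0.14 and 0.25. Sepp1, the selenium carrier, fell by 1.83 at 36 h (limma adjusted p = 1.0e-07), while Lrp8, a receptor for it, rose 2.78-fold at 6 h (limma adjusted p = 2.1e-08).

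Of 8 NADPH oxidase genes tested after lesion, 6 were called higher and the other 2 were not called, with a median of 0.83, where 20.9% of all genes were called higher and 20.2% lower. Ncf4, among those called higher, stayed at or below 7.46 in sham libraries and passed the filter on low values only through the lesion libraries. Its call is a description. In the same comparison 7 of 8 macrophage markers and all 6 fibroblast markers were called higher. Cybb, the phagocyte oxidase subunit, rose 2.79-fold, from 116 ± 17.2 to 324 ± 29.7 (limma adjusted p = 2.3e-06). At 6 h in culture 1 of 8 was called higher and 3 lower, where 24.2% of all genes were called higher and 24.2% lower. Cybb rose 3.35-fold there (limma adjusted p = 9.9e-06). Of 7 macrophage markers tested there 5 were called lower, Cd68 was called higher (31.1 to 57.4 normalized counts) and Ptprc was not called (48.4 and 46.8). Of 15 NADPH supply genes 2 were called lower and 13 not called after lesion, and 4 were higher and 3 lower at 6 h, with medians of 0.02 and 0.15. Taldo1, of the pentose phosphate pathway, rose 3.84-fold by 36 h against sham (limma adjusted p = 8.1e-08). Among 5 superoxide dismutase and catalase genes, 1 was called higher and 1 lower after lesion, and 3 were called lower at 6 h. Sod3, the extracellular form, rose 1.49-fold after lesion (limma adjusted p = 4.9e-04). It fell by 1.68 at 6 h in culture (limma adjusted p = 2.4e-06) and was 1.72-fold above sham at 36 h (limma adjusted p = 0.00228).

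**Figure D4:**
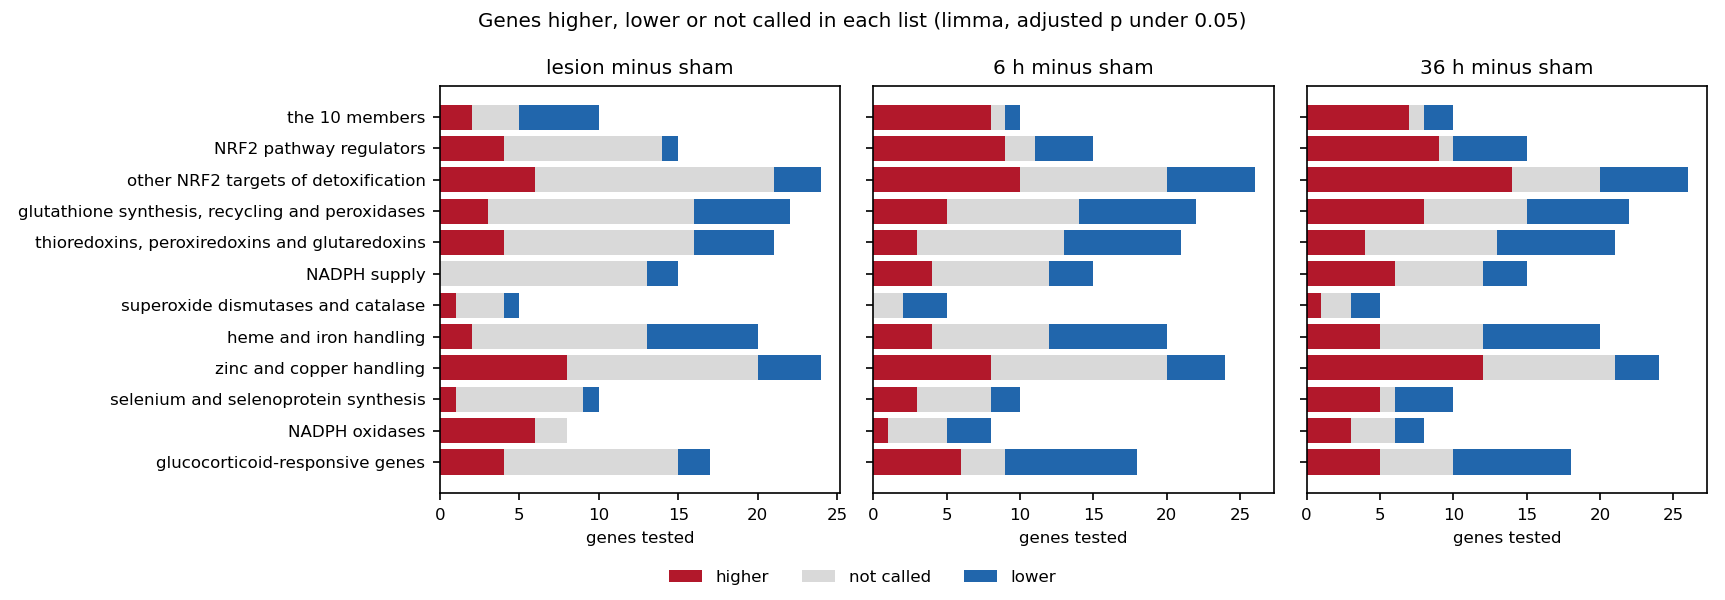
Genes called higher (red), lower (blue) or not called (grey) by limma at an adjusted p under 0.05, for the 10 genes and 11 other lists, in lesion against sham and in culture at 6 and 36 h against sham. The bar length is the number of genes tested. The 10 genes are mostly red in both culture panels (8 and 7), and after lesion 2 are red, 5 blue and 3 grey.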

How the data were processed

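The deposited table holds 1 normalized read count per gene and library, a signal the authors scaled between libraries. The submitters' processing notes name TopHat and mm10. The aligner's version, the annotation and the counting tool were not given in the sources used here. Each library's values are whole reads times 1 factor: all 339603 values checked, up to 1000 reads, came out whole (100.0%, within 0.1), so depth was recovered by division. The design had allowed for raw counts; as values were normalized, limma 3.58.1 (R 4.3.3; trend and robust) was run on log2(value + 1) for genes with at least 10 in at least 3 libraries, and edgeR 4.0.16 and DESeq2 1.42.0 on recovered reads served as alternatives. Benjamini-Hochberg adjustment covered all genes tested, with a threshold of 0.05. Each comparison used its own libraries, and the 4 culture times shared 1 spread. Fold changes come from log2(value + 1), so changes of low genes are understated. The fits were tested on simulated data. From each list and comparison, the text could name the largest rise and fall among called genes without overlap and with a higher mean of at least 100.0; others are said to be chosen later. One of the genes nearest in pattern is not reported here. The 10 genes and the lists were chosen with earlier results of these data known. Precision is limited by 3 libraries a group and by depth.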

Additional observations from a re-analysis of the deposited data

How the results depend on the processing

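Over the alternatives run (pseudocounts of 0.5 and 5, no filter, TMM scaling, edgeR, DESeq2, another variance model, 1 fit over 24 libraries, each library left out, libraries under 5000000 reads left out, and for the lesion a block), 63 of 90 results of the 10 genes kept direction and call throughout. Of 1387 recomputed values, 1289 kept both, 32 lost the call, 40 gained it and 26 changed sign, all of them differences that were not called. The cause of these changes was not tested. The step without shallow libraries was not run for either E17.5 comparison, where a group would keep 1 library, and lesion and sham held no such library.

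Genes called after lesion numbered 2615 in 1 fit over 24 libraries, against 5990. From 6 to 12 h, genes called ran from 880 to 2618 with a library left out, against 1588 (2618 without 12 h replicate 1). Members called there were 1 with a pseudocount of 5, 2 in edgeR, 4 in DESeq2, 3 without shallow libraries and 0 to 2 with a library left out, against 0.

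Sign changes were seen for Mt1 from E12.5 to E17.5 (0.10 in edgeR, 0.15 in DESeq2, -0.44 to 0.54 with a library left out), where Nqo1 ran from -0.12 to 0.39 and Gclc from -0.10 to 0.05. From 6 to 36 h they were seen for Nqo1 (0.01 with TMM, 0.08 in edgeR, 0.04 in DESeq2, 0.03 without shallow libraries, -0.28 to 0.27 with a library left out) and for Srxn1 (0.00 with TMM and in edgeR, -0.10 to 0.05 with a library left out). Mt1 from 12 to 36 h turned to -0.04 without shallow libraries and ran from -0.04 to 0.15, and Gclm from 6 to 12 h ran from -0.15 to 0.07. No paired analysis was possible because the groups share no replicate numbers in the labels. The titles' library numbers fall into 2 series that cross sham and lesion. With the series as a block, an alternative chosen after seeing the data, 5681 genes and the same 7 of the 10 genes were called.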

Other observations

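The ratio of Mt1 to Mt2 separated adult intact ganglia from cultures. It ran from 1.71 to 1.87 (median 1.77) in the 6 sham and lesion libraries and from 0.648 to 1.09 (median 1.01) in the 12 culture libraries, with no overlap. An exact two-sided permutation test of the log2 ratio gave p = 1.1e-04, the smallest it can give with these numbers. With the separation already seen, this outcome was fixed beforehand. The test also pools sham with lesion, and the culture times with each other, so its p-value adds no support to the ranges. The ratio and its test were chosen after the values had been seen, library series and culture cannot be told apart, and Gm45774, which lies antisense to Mt2, cannot be separated from it without strand.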
